A study of Mus musculus with 6 samples.

Results

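The genes described here encode proteins of the whey acidic protein (WAP) family and secretions of the reproductive tract: Wfdc1, Wfdc2, Wfdc6a, Wfdc15b, Wfdc18, Slpi, Eppin, Svs5 and Ovgp1. They are 9 of 18193 genes that the arrays measured with a probe set annotated to a single symbol, and they have 13 such probe sets. The list was put together with earlier results of these same arrays in view, and the probe set that stands for each gene was chosen by its mean signal over all 6 arrays, so the values below describe these genes and are not an independent test of them. Transcripts were profiled in the whole ovary of female mice aged 8 months, with both ovaries pooled for each RNA sample and 1 Affymetrix Mouse Genome 430 2.0 array per sample. The FORKO group (3 samples) lacked the receptor for follicle-stimulating hormone through a deletion covering all variants of the receptor, and the wild-type group (WT, 3 samples) came from the same crosses of heterozygotes on the 129T2 svEmsJ background. No sample was treated with an agent, the labels do not say how many mice each sample came from, and p-values therefore measure only the spread between these samples.

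WAP domain proteins are small secreted proteins folded around a core of disulfide bonds, and several of them block serine proteases or kill bacteria. They are made by epithelia of the reproductive tract, the airways and the skin and by leukocytes, and in the male tract they coat sperm together with proteins of the seminal vesicle. In the female tract the oviduct secretes OVGP1, a chitinase-like glycoprotein that binds the zona pellucida and that is known to be induced by oestrogen. In mouse, many WAP genes lie in a cluster on chromosome 2 that also holds genes of seminal vesicle proteins.

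Fshr, the deleted gene, read 99.6, 59.4 and 118.8 in WT and 1.2, 11.2 and 11.7 in FORKO ovaries, so the groups did not overlap; whether its probe set lies in the deleted part is not known here. The free-text fields of the FORKO samples speak of wild-type mice, while their titles and genotype fields say FORKO, and the titles were used. FORKO replicate 1 stood apart from the others of its group, its log2 signals correlating at 0.934 to 0.936 (Pearson, over the tested probe sets) with replicates 2 and 3, against 0.976 between those and 0.966 to 0.969 within WT. Of ovarian markers, Foxl2 read 626 to 872 and Amhr2 1550 to 2941 over the 6 arrays, whereas Amh read at most 1.16 on every array. In whole ovary, fewer cells of a type and less RNA per cell cannot be told apart.

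The promoters of 4 genes are shown because these genes carry the results below: Wfdc18, alike on the 3 FORKO arrays, Svs5 and Eppin, highest in FORKO replicate 1, and Ovgp1, raised in FORKO replicates 2 and 3. Each is the 250 bases before the annotated start (RefSeq, GRCm38.p6), written 5′ to 3′ on the gene's strand: Wfdc18 at chr11:83708754-83709003 (plus strand), Svs5 at chr2:164332515-164332764 (plus), Eppin at chr2:164593572-164593821 (minus) and Ovgp1 at chr3:105973552-105973801 (plus). Capitals mark TATAAA on the gene's strand, AGAACA or its reverse complement TGTTCT (letters found in binding sites of the androgen and glucocorticoid receptors), and GGTCA or TGACC (letters found in binding sites of the oestrogen receptor). No matches overlapped in these windows.
Wfdc18: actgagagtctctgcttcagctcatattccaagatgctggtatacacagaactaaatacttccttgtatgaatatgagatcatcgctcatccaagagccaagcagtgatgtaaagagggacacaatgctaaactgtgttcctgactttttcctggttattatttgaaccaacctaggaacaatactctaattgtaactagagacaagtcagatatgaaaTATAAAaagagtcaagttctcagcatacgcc
Svs5: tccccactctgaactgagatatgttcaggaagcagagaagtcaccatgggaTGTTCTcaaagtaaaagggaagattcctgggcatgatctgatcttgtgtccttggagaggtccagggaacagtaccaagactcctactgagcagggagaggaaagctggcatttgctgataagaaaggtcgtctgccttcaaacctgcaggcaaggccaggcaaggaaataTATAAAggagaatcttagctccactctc
Eppin: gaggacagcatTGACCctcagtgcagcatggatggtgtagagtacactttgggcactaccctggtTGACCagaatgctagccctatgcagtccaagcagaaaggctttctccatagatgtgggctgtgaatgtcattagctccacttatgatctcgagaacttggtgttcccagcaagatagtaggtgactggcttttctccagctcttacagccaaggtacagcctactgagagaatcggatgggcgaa
Ovgp1: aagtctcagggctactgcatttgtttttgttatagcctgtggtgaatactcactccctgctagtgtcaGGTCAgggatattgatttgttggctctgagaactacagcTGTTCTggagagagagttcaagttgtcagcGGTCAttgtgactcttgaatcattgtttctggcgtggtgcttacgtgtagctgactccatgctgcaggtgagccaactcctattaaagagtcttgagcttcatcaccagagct

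TATAAA began 31 bases before the start of Wfdc18 and 28 bases before that of Svs5, and 7.59% of all 32851 promoter windows of this length hold it. There are 10 windows for 8 of the genes, since Wfdc2 and Wfdc6a each have a second start. The windows of Wfdc2 begin at chr2:164562465 and chr2:164562466, so they are nearly the same sequence. Its GGTCA lies at their end and is cut by the edge of the earlier window. Of these 10 windows, 2 held TATAAA, 3 held AGAACA or TGTTCT (Wfdc15b, Svs5 and Ovgp1; 16.1% of all windows) and 5 held GGTCA or TGACC (35.2% of all windows), which Wfdc2 and Wfdc6a held in 1 window each. The forkhead letters TGTTTAC or GTAAACA were in 0 of the 10, and in 3.17% of all windows. Counted by gene, TATAAA was in 2 of 8, AGAACA or TGTTCT in 3 and GGTCA or TGACC in 5. A match describes the letters of the window and is not evidence that a receptor binds there.

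Of the WAP and seminal genes, 4 rose in FORKO ovaries, and none fell. Wfdc18, Wfdc6a, Eppin and Svs5 passed the test across all probe sets (limma adjusted p of 0.00426, 0.0101, 0.0323 and 0.0321), with log2 changes of 2.95, 2.41, 2.28 and 3.28. Of the 9 genes, 8 were bright enough to be tested, 4 passed and 4 did not, whereas 1.3% of all 11199 genes tested passed as higher in FORKO. All 9 genes had a positive change, and in 7 every FORKO array read above every WT array, which held for 10.7% of all genes tested. Of the 8 tested genes, 6 had a WT mean below the brightness filter of 20.4 and so entered the test through their FORKO signal; Slpi and Ovgp1 had a WT mean above it. With no such filter, 0.528% of 18193 genes passed as higher, among them 2 of the 9, Wfdc6a and Wfdc18 (limma adjusted p = 0.0208 and 0.0101), while Eppin and Svs5 did not (0.0668 and 0.0601). Signals are array intensities scaled to 1 trimmed mean. A log2 change subtracts the WT mean of log2(signal + 5.73) from the FORKO mean; the added 5.73 shrinks the change of dim probe sets. No detection calls were used, so a low WT signal is not shown to be expression.

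**Figure D1:**
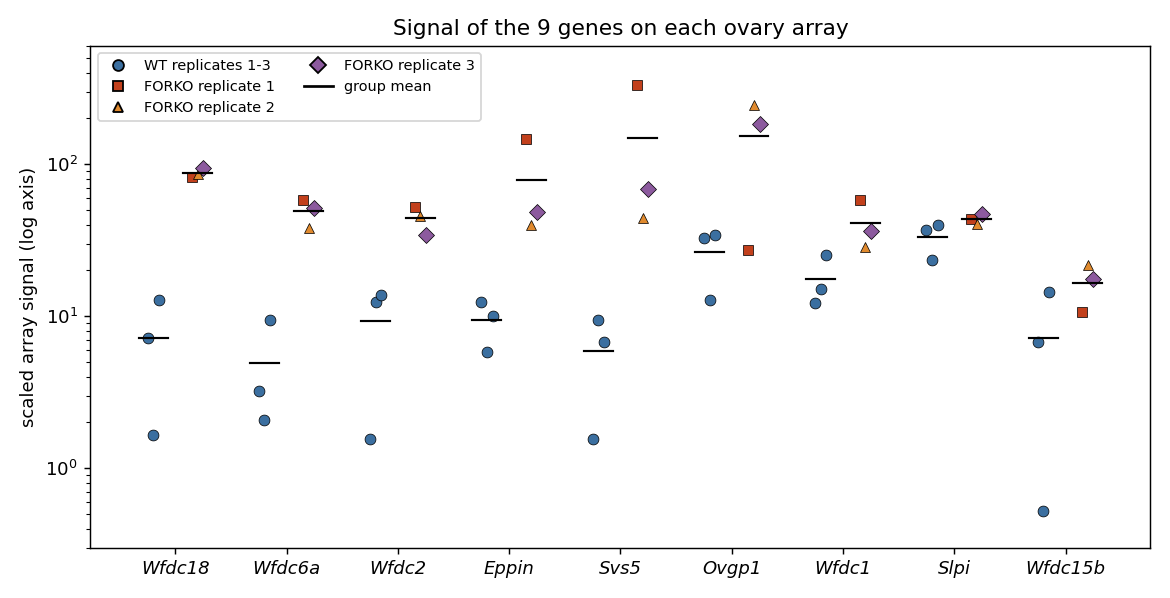
Scaled array signal (log axis) of the 9 genes by their standing probe sets; circles are the 3 WT arrays, squares, triangles and diamonds are FORKO replicates 1, 2 and 3, and bars are group means. Wfdc18 reads 82.6 to 94.2 on the FORKO arrays and at most 12.8 in WT, Svs5 is highest in FORKO replicate 1 at 332, and Ovgp1 in that array, at 27.2, lies within the WT range.

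Wfdc18, a WAP protein also known as extracellular proteinase inhibitor and described in mouse mammary gland, read 7.16, 1.67 and 12.8 in WT and 82.6, 85.8 and 94.2 in FORKO ovaries. The 3 FORKO arrays lay close together and far above WT. The means were 7.21 ± 5.57 and 87.5 ± 5.98 (SD, n = 3 in each), a 12.1-fold difference of means, and the log2 change came to 2.95 ± 0.33 (SE; limma adjusted p = 0.00426). The exact two-sided permutation p over arrays was 0.1, the smallest that 3 against 3 can give, as for each gene here whose groups did not overlap. Wfdc18 passed in each of 14 alternative fits (limma adjusted p 4.62e-04 to 0.0266). Its probe set is of the kind that may detect more than 1 related transcript.

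Wfdc6a, a WAP gene that lies beside Eppin on chromosome 2, read 3.22, 2.08 and 9.40 in WT and 57.8, 38.1 and 51.5 in FORKO ovaries. As for Wfdc18, all FORKO arrays were alike and above WT. The means were 4.90 ± 3.94 and 49.2 ± 10.1 (SD, n = 3), and the log2 change came to 2.41 ± 0.32 (SE; limma adjusted p = 0.0101). It passed in all 14 alternative fits, although without WT replicate 2 the limma adjusted p was 0.0498. Over the 6 arrays the log2 signals of Wfdc6a and Wfdc18, which lies on chromosome 11, had a Pearson r of 0.985; this value contains the difference between the groups and is given as a description.

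Eppin, which joins a WAP domain to a Kunitz domain and coats sperm in the male tract, read 12.5, 5.83 and 10.03 in WT. It read 147, 39.7 and 48.8 in FORKO replicates 1, 2 and 3. All FORKO arrays were above WT, and replicate 1 read 3.32 times the mean of replicates 2 and 3. The log2 change came to 2.28 ± 0.43 (SE; limma adjusted p = 0.0323). Eppin did not pass without WT replicates 1, 2 or 3 (limma adjusted p = 0.0936, 0.152 and 0.113) or without FORKO replicate 3 (0.0671), and passed without FORKO replicate 1 with a smaller change of 1.74 (limma adjusted p = 0.00690).

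Wfdc2, also called HE4, an epithelial secretion first described in human epididymis, read 1.56, 12.5 and 13.7 in WT and 52.1, 45.9 and 34.0 in FORKO ovaries. The groups did not overlap, but the test was narrowly missed: the log2 change came to 1.84 ± 0.39 (SE; limma adjusted p = 0.0508, 95% interval 0.97 to 2.71). It passed in 3 of 14 alternative fits: on the signals as deposited (limma adjusted p = 0.0374), with a pseudocount of 16 (0.0314) and without FORKO replicate 1 (0.0364).

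Slpi, the secretory leukocyte protease inhibitor that blocks neutrophil elastase, read 37.2, 23.3 and 39.6 in WT and 43.4, 40.5 and 46.7 in FORKO ovaries. The FORKO arrays lay just above the WT arrays, with gaps no larger than the spread within WT. The log2 change came to 0.36 ± 0.23 (SE; limma adjusted p = 0.541), with a 95% interval of -0.16 to 0.88. Wfdc1, also called ps20 and known as a secreted protein of prostate stroma, read 12.1, 15.1 and 25.3 in WT and 57.9, 28.4 and 36.3 in FORKO ovaries. Its groups did not overlap and it did not pass (log2 change 0.99 ± 0.31, SE, limma adjusted p = 0.172, 95% interval 0.30 to 1.69). Wfdc15b, an antibacterial WAP protein also called SWAM1, was below the brightness filter, and its groups overlapped, at 6.75, 0.520 and 14.4 in WT and 10.6, 21.6 and 17.5 in FORKO ovaries.

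**Figure D2:**
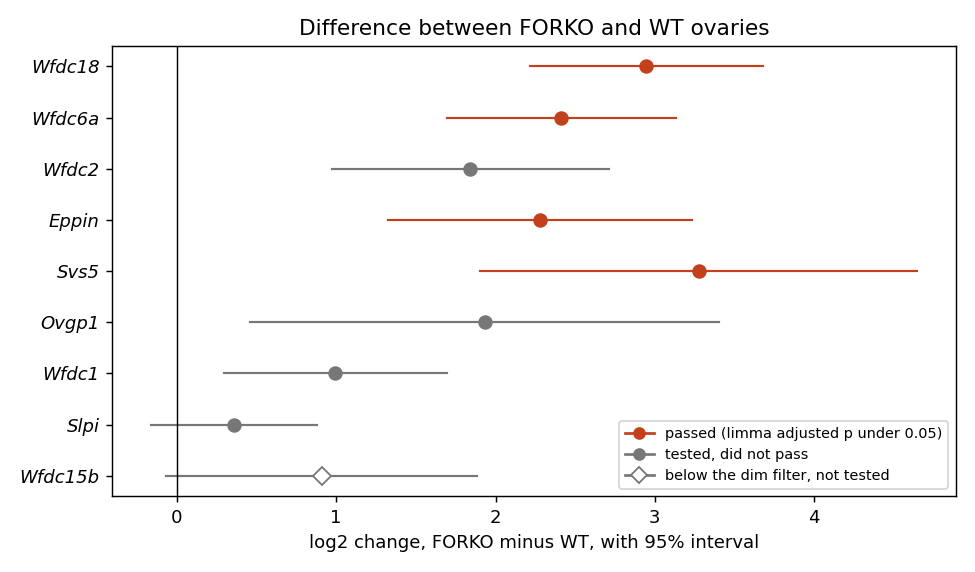
Log2 change, FORKO minus WT, of each gene (x axis) with its 95% interval from the limma fit; red marks genes that passed, grey circles genes tested that did not, and the open diamond Wfdc15b, which was not tested. The intervals of Wfdc18 (2.22 to 3.68) and Wfdc6a (1.69 to 3.13) lie well above 0, and those of Slpi and Wfdc15b contain 0.

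Svs5, a protein secreted by the seminal vesicle in males, had the largest change of the 9 genes, and its FORKO arrays were uneven. Its standing probe set read 1.56, 9.47 and 6.80 in WT, against 332, 44.2 and 69.0 in FORKO replicates 1, 2 and 3. Every FORKO array was above WT, and replicate 1 read 5.86 times the mean of replicates 2 and 3. The log2 change came to 3.28 ± 0.61 (SE; limma adjusted p = 0.0321). Without FORKO replicate 1 the change was 2.45 and passed (limma adjusted p = 0.00246), whereas Svs5 did not pass without WT replicates 1, 2 or 3 (0.128, 0.111 and 0.112) or FORKO replicate 3 (0.0675).

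Svs5 has 5 probe sets, of which 4 were bright enough to be tested and 3 passed; 1.06% of all 22506 probe sets tested passed as higher. In all 5 every FORKO array read above every WT array, which held for 10.7% of all genes tested by their standing probe sets. All 5 had their highest signal in FORKO replicate 1, at 332, 311, 213, 118 and 18.5. The changes of the 4 tested ones ran from 1.87 to 3.28 on the log2 scale, and the one that did not pass, at 1.87, had a limma adjusted p of 0.143. The mean of log2 values over all 5 gave a change of 2.59. These probe sets target 1 gene and are not replicates of each other, and 3 of the names (ending in _x_at) mark probes that may bind other transcripts.

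Svs6, a related seminal vesicle gene next to Svs5, was the other gene of male tract secretions above the filter, and it read 4.88, 0.729 and 5.82 in WT, against 175, 24.7 and 23.4 in FORKO replicates 1, 2 and 3. FORKO replicate 1 was highest, as for Svs5, and Svs6 did not pass (log2 change 2.56, limma adjusted p = 0.0879). Of 17 listed seminal vesicle, prostate and epididymis genes 11 were on the array and 10 were below the filter. Svs2 read at most 2.43, Svs3a at most 9.89 and Svs4 at most 7.98 on any array. Pate4 read 1.56, 0.937 and 1.16 in WT and 26.2, 1.37 and 5.28 in FORKO. Summed over the 11, signals were 39.8 to 65.3 in WT, against 255, 73.2 and 62.8 in FORKO replicates 1, 2 and 3, so replicates 2 and 3 lay at or near the WT range.

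**Figure D3:**
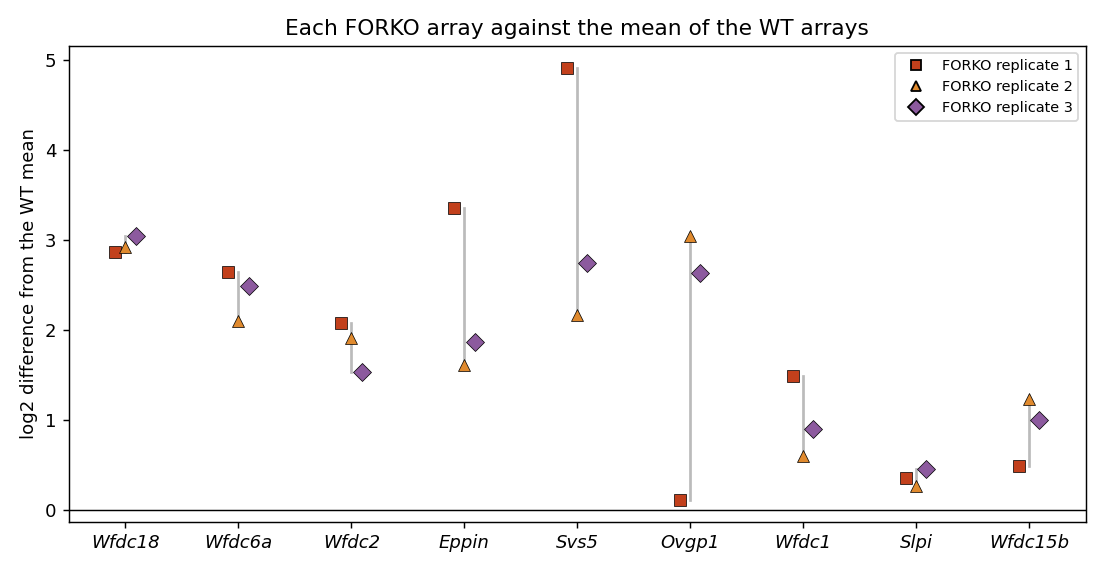
Log2 difference of each FORKO array from the mean of the 3 WT arrays (y axis) for the 9 genes. The 3 arrays lie between 2.87 and 3.05 for Wfdc18, replicate 1 is highest for Svs5 (4.92) and Eppin (3.36), and it is lowest for Ovgp1 (0.11, against 3.05 and 2.63).

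Ovgp1 ran the other way among the FORKO arrays. It read 32.8, 12.7 and 34.4 in WT, 27.2 in FORKO replicate 1, and 247 and 184 in FORKO replicates 2 and 3. Its only probe set, like that of Wfdc18, is of the kind that may detect more than 1 related transcript. The groups overlapped through replicate 1, which lay within the WT range, while replicates 2 and 3 were 9.28 and 6.91 times the WT mean. Over all arrays Ovgp1 did not pass (log2 change 1.93 ± 0.66, SE, limma adjusted p = 0.210). Without FORKO replicate 1 the change was 2.84 and passed (limma adjusted p = 2.33e-04). Because that fit drops the FORKO array that lay in the WT range, it describes replicates 2 and 3 and is not an independent test. In that fit 6 of the 8 tested genes passed, namely Wfdc2, Wfdc6a, Wfdc18, Eppin, Svs5 and Ovgp1, and 3.18% of all genes passed as higher. What sets replicate 1 apart was not tested.

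On chromosome 2, where 6 of the 9 genes lie, 3 genes of the list rose: Wfdc6a, Eppin and Svs5, of which Eppin and Svs5 lose the call with no brightness filter. In the GRCm38.p6 gene order, 22 genes run from Wfdc15b to Eppin, 19 of them protein coding, and 16 are not in the list. Of these 16, 11 were on the array and 5 were bright enough to be tested, and 0 of the 5 passed by limma in either direction (median log2 change 0.12); so few genes say little where 2.14% of all genes tested passed in either direction. The largest change among the 5 was that of Svs6, next to Svs5 (log2 change 2.56, limma adjusted p = 0.0879), with all FORKO arrays above WT. Sdc4, the heparan sulfate proteoglycan syndecan 4, read 1052, 952 and 816 in WT and 2246, 1263 and 1424 in FORKO ovaries without passing (limma adjusted p = 0.128). Sys1 read 244 to 279 in WT and 236 to 333 in FORKO, and Dbndd2 47.4 to 62.2 and 47.6 to 65.9. Slpi, which lies next to Svs5, did not pass.

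**Figure D4:**
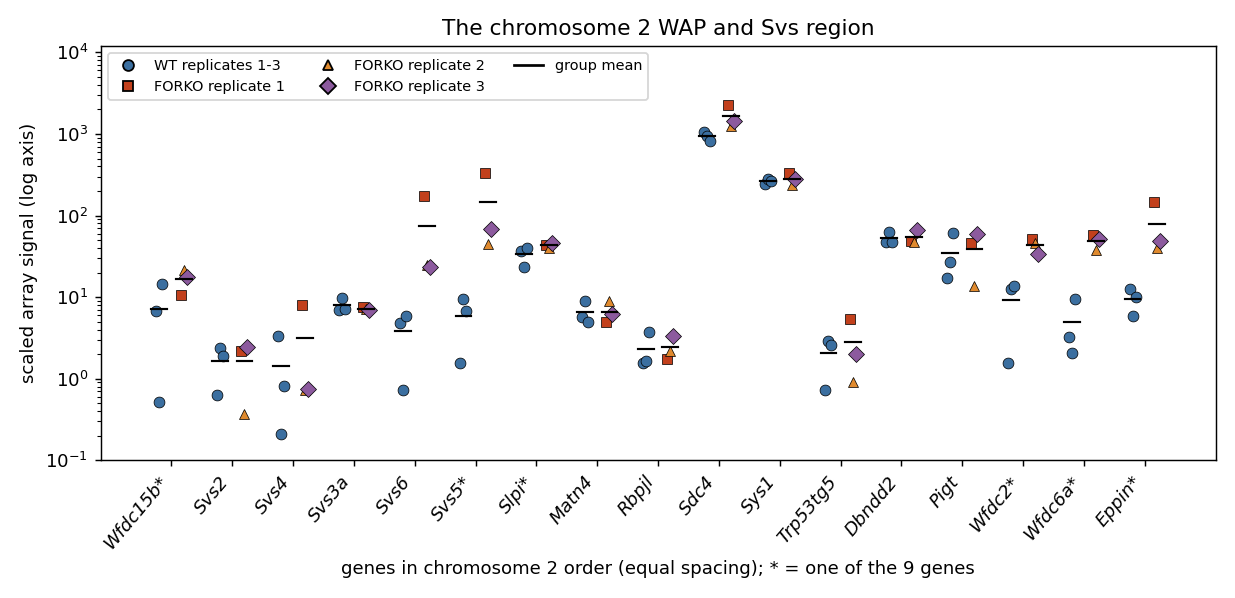
Scaled array signal (log axis) of the 17 genes on the array between Wfdc15b and Eppin, in chromosome 2 order at equal spacing; asterisks mark genes of the list, symbols are as for the signals of the 9 genes and bars are group means. Svs6, Svs5, Slpi, Sdc4, Wfdc2, Wfdc6a and Eppin have all FORKO arrays above WT, while Wfdc15b, Svs2, Svs4, Svs3a, Matn4, Rbpjl, Sys1, Trp53tg5, Dbndd2 and Pigt overlap.

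Most other genes with WAP domains were dim. Of 16 listed, 9 were on the array, 2 were bright enough to be tested and neither passed by limma: Wfdc17 read 49.0, 35.0 and 48.5 in WT and 40.9, 17.1 and 23.4 in FORKO ovaries (log2 change -0.65), and Wfikkn2, which binds myostatin, 13.2, 18.8 and 15.1 and then 41.3, 24.2 and 20.5 (0.64). An unadjusted p under 0.05 was seen for 1 of these. The share of all genes tested with such a p was not worked out, so counts of this kind, here and below, have no background. Wap, the milk protein that names the family, read at most 10.9 on any array, and 0 of 6 milk protein genes were bright enough to be tested. Kunitz inhibitors, the class of the second domain of EPPIN, had 4 tested genes of which 0 passed and 2 had an unadjusted p under 0.05; Spint2 read 356 to 516 in WT and 1612, 603 and 700 in FORKO, and Tfpi 633 to 812 and 384 to 565. The median log2 change of all genes tested was -0.02.

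Genes of the serine proteases that such inhibitors block were mostly dim. Of 9 on the array 2 were tested and 0 passed or reached an unadjusted p under 0.05. Elane and Ctsg, the elastase and cathepsin G of neutrophils, read at most 14.6 and 7.52 on any array. Cela1, a chymotrypsin-like elastase, read 52.2, 99.5 and 79.7 in WT, against 23.6, 206 and 178 in FORKO replicates 1, 2 and 3, so that its FORKO arrays fell on both sides of WT. Cma1, the mast cell chymase, read 24.2, 32.4 and 24.4 in WT and 14.9, 43.3 and 64.4 in FORKO. In both, FORKO replicate 1 was the lowest of all 6 arrays.

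Ciliated cell markers summed to more on each FORKO array than on any WT array. No tested gene of the ciliated or secretory epithelium lists passed by limma. Of 13 ciliated cell genes on the array 4 were tested and 0 passed (2 with an unadjusted p under 0.05); their summed signal was 118 to 160 in WT, against 372, 258 and 246 in FORKO replicates 1, 2 and 3. Dnah9, an axonemal dynein, read 9.58 to 13.9 in WT and 69.7, 30.8 and 21.0 in FORKO, and Rsph1 4.98 to 28.2 and 29.0 to 56.7. Foxj1, the factor that defines ciliated cells, read 1.56 to 4.57 in WT and 1.64 to 6.65 in FORKO, so its groups overlapped. Of the 9 dim genes of this list, 3 did not overlap: Rsph4a (0.415 to 0.833 in WT and 4.37 to 8.55 in FORKO), Dynlrb2 (4.57 to 9.47 and 14.0 to 23.1) and Ccdc153 (3.32 to 12.8 and 15.4 to 21.4). With the tested Dnah9, Rsph1 and Cfap126 (14.0 to 21.9 and 23.7 to 33.8), all FORKO arrays lay above WT for 6 of the 13. This held for 10.7% of all genes tested, and no such share was worked out for dim genes, so the 6 have no like background. Of 9 secretory epithelium genes 5 were tested and 0 passed (3 with an unadjusted p under 0.05), with sums of 525 to 643 in WT and 1378, 585 and 680 in FORKO; Krt7 read 42.7 to 44.3 and then 154, 53.7 and 69.5, and Emx2 95.8 to 107 and then 306, 135 and 146. Pax8, the factor of oviduct secretory cells, read 8.92 to 13.0 in WT and 7.98 to 12.9 in FORKO. No detection calls were used, so low signals of these markers do not show whether such cells were present. The part of such cells in the changes of the 9 genes was not tested.

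Among surface epithelium and mesothelium genes 11 were tested and 3 rose, Gpm6a, Krt8 and Krt18 (log2 changes 1.22, 1.07 and 1.15), and 8 did not pass, where 1.3% of all genes tested rose. With no brightness filter Gpm6a did not pass (limma adjusted p = 0.0782). The sum of the list was 968 to 1049 in WT, against 2811, 1606 and 1746 in FORKO replicates 1, 2 and 3. Replicate 1 thus had the highest sum here, and it was also highest for Svs5 and Eppin, but Krt8 read 523, 530 and 536 in FORKO replicates 1, 2 and 3. The ciliated and secretory epithelium lists also had their highest sum in replicate 1, so this is not particular to surface epithelium. The part of these cells in the changes of Svs5 and Eppin was not tested. Of 6 uterine secretion genes on the array 3 were tested and Lcn2 rose (log2 change 5.58, limma adjusted p = 0.00295). Neutrophil genes had 2 tested members, Camp and Csf3r, and 0 passed; Camp read 0.830, 37.3 and 23.6 in WT and 4.26, 78.4 and 44.7 in FORKO, and the 8 genes on the array summed to 41.4 to 103 and 49.3 to 136. Of adipocyte genes, Fabp4 was tested and did not pass (log2 change 0.28). Adipoq, the adipocyte hormone adiponectin, was below the filter and read 12.9, 13.6 and 12.5 in WT and 0.984, 1.19 and 2.85 in FORKO (limma adjusted p = 0.0683 with no filter), so the FORKO arrays lay below WT.

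Receptors for steroid hormones, which control many tract secretions, did not pass by limma (0 of 4 tested, 2 with an unadjusted p under 0.05, a count without a share of all genes beside it). Pgr, the progesterone receptor, read 52.6, 28.5 and 69.4 in WT and 11.3, 26.7 and 17.8 in FORKO ovaries, and Esr1, an oestrogen receptor, 723, 733 and 919 and then 632, 502 and 613. Ovarian markers also had 0 of 8 tested genes passing, with 5 at an unadjusted p under 0.05, and 3 of the 8 had a positive change. Gdf9, an oocyte growth factor, read 199 to 256 in WT and 48.1, 123 and 126 in FORKO, and Star, the cholesterol carrier, 742 to 1977 and 543 to 804. Amhr2 and Foxl2 went the other way, Amhr2 at 1550 to 1745 in WT and 2128 to 2941 in FORKO, and Foxl2 at 626 to 810 and 819 to 872.

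For each tested gene of the list, the 3 most similar genes were sought among 10702 others by Pearson r of log2 signals over the 6 arrays; with so few arrays many genes reach a high r, and these values are descriptions. Wfdc18 and Wfdc6a were both most like Ccrl2, an atypical chemokine receptor (r = 0.996 and 0.993), which read 27.5 to 38.8 in WT and 81.0 to 91.4 in FORKO ovaries and passed (limma adjusted p = 0.0155). After it came Art4 and Magi1 for Wfdc18 (0.987 and 0.986) and Slc25a37 and Msantd4 for Wfdc6a (0.992 and 0.988). Eppin was most like Gsta3, a glutathione S-transferase (0.998), then Adam8 and Map4 (0.997 and 0.996); Gsta3 read 31.8 to 50.8 in WT and 347, 112 and 126 in FORKO. Svs5 was most like Vav3 and Fes (0.998 and 0.997), then Ramp1, a partner of the calcitonin receptor-like receptor (0.997), which read 24.4 to 36.6 in WT and 483, 123 and 152 in FORKO.

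The genes most like Ovgp1 were Epn2, Tbc1d10a and Ltf (r = 0.998, 0.995 and 0.994). Ltf encodes the iron-binding milk and uterine protein lactotransferrin and read 7.58, 0.520 and 12.4 in WT, against 7.21, 81.6 and 60.2 in FORKO replicates 1, 2 and 3. Like Ovgp1, it lay in the WT range in replicate 1 and above it in the other FORKO arrays, and it did not pass (limma adjusted p = 0.231). Esr2, the oestrogen receptor of granulosa cells, read 30.9, 40.1 and 30.7 in WT and 9.95, 108 and 66.2 in FORKO; it was added here after its values were seen. The nearest genes to Wfdc2 were Gab1, Cdk2ap2 and Slit3 (0.993, 0.989 and 0.986), those to Wfdc1 were Zfhx4, Galnt1 and Susd2 (0.990, 0.986 and 0.985), and those to Slpi were Atf5, Usp8 and Kctd17 (0.989, 0.987 and 0.986). Among the list itself, r was 0.951 between Eppin and Svs5 and 0.285 between Svs5 and Ovgp1.

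With the replicate number as a block the 4 genes that passed were again Wfdc18, Wfdc6a, Eppin and Svs5 (limma adjusted p = 0.00592, 0.0118, 0.0149 and 0.0429), while the share of all genes passing as higher was 2.4%.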

How the data were processed

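RNA of whole ovaries (3 WT and 3 FORKO samples, grouped by title) was hybridised to 1 array each. The authors deposited an array intensity per probe set made with MAS5, per the submitters' processing notes; the sources used here name neither the version nor the scaling target, and no detection calls were used. Deposited medians were 17.7 to 23.5, and 6.66% of values were under 1. Arrays were scaled to a shared mean that left out the 2% highest and lowest signals (factors 0.895 to 1.09), the pooled 25th percentile, 5.73, was the pseudocount, 64 control probe sets were left out, and the 22506 probe sets with a mean of at least 20.4, the median of means, went into limma 3.58.1 (R 4.3.3; eBayes with intensity trend, two-sided, Benjamini-Hochberg at 0.05). The fit was tested on simulated data. It recovered 27% of log2 changes of 1 and 81.1% of changes of 2, and 3.05% of its calls were false. A gene that did not pass is therefore not shown to be unchanged. Arrays give no counts, and their number limits the precision.

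Genes were named from the platform annotation where it gives 1 symbol (34945 probe sets); all 9 genes matched the GRCm38.p6 table by Entrez identifier. Members and gene lists were chosen with earlier results of these data known. Named were all members with every probe set, Fshr, up to 3 genes that passed per list (or the 2 largest changes among tested ones), genes of the chromosome 2 stretch that passed, and the 3 genes most like each member; Foxl2, Amhr2, Amh, Sdc4, Sys1, Dbndd2, Esr2, Cfap126 and all dim genes named (such as Foxj1, Pax8, Pate4 and Adipoq) were added after their values were seen, as were the promoter motifs. Alternatives covered scaling, pseudocount, dim filter, variance trend, block, each array left out and the mean over probe sets. Replicate numbers 1 to 3, which the labels tie to no litter or day, paired the samples by the rule that every same-numbered pair's deviations correlate above 0.1 (0.195, 0.134 and 0.358). The main fit did not use this pairing, so its p-values and intervals are unpaired, and the fit with replicate number as a block is an alternative. Figures were drawn with matplotlib 3.10.9.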

Additional observations from a re-analysis of the deposited data

How the results depend on the processing

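Across all probe sets 372 passed (64.0% of them higher in FORKO), and 4 of the 9 genes. With the replicate block 691 probe sets passed, and the same 4 genes. With no dim filter 221 probe sets and 2 genes passed, and with the filter at the 75th percentile of means 191 and 0, since none of the 9 genes was bright enough to be tested there. Leaving out 1 array at a time gave 63 to 860 probe sets and 2 to 6 genes. Without WT replicates 1, 2 or 3 it gave 104, 63 and 83 probe sets, and without FORKO replicates 1 and 3 860 and 128. The share of higher calls was 50.6% with arrays scaled to the same median. No change of the 8 tested genes turned its sign in the 14 alternatives that gave a value. Wfdc18 and Wfdc6a passed in all 14, Eppin in 9, Svs5 in 7, Wfdc2 in 3, Ovgp1 in 1, and Wfdc1 and Slpi in 0 (limma adjusted p 0.147 to 0.427 and 0.408 to 0.883). Svs5 missed the threshold with a pseudocount of 16 (limma adjusted p = 0.0521) and without the variance trend (0.0504). The causes were not tested. WT signals of 6 of the 8 tested genes lay below 20.4 on average, where background limits the size of a fold.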
